A study of Mus musculus with 34 samples.

Results

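The genes described are Gas6, Pros1, Mertk, Axl, Mfge8, Timd4, Maf and Adgre1, a group of efferocytosis and resident macrophage genes. They were chosen by symbol, and each had 1 row among the 52550 genes of the main table and 1 among the 25498 genes of a smaller table, named batch 1 in the labels. RNA sequencing was run on mouse bone marrow-derived macrophages, cells grown from marrow with the growth factor M-CSF. All mice, WT included, carried Vav-Cre, a recombinase driven in blood cells, and were 10 to 14 weeks old. Dnmt3aKO mice were homozygous for a floxed Dnmt3a allele (fl/fl), which encodes a DNA methyltransferase. Tet2KO mice were homozygous for a floxed Tet2 allele (fl/fl), which encodes an enzyme that oxidises methylated DNA. Jak2VF mice had 1 V617F allele of Jak2, an activating change in a cytokine receptor kinase, beside 1 WT allele. Mutations of these genes occur in clonal hematopoiesis, and the series asked how they alter macrophage transcripts. Cells received low-density lipoprotein (LDL, 200 mg/dL) or vehicle for 24 h. The main set held 3 libraries with LDL and 3 with vehicle for each of Dnmt3aKO, Tet2KO, Jak2VF and WT. Batch 1 held 2 libraries with LDL and 3 with vehicle for each of Tet2KO and WT. Nothing in the labels ties replicate libraries to different mice, so the p-values measure only the spread between libraries, which may be technical.

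Efferocytosis is the removal of dying cells by phagocytes. Dying cells expose phosphatidylserine on their surface, and bridging proteins or receptors recognise it. Gas6 and Pros1 (protein S) are vitamin K-dependent bridging ligands of the TAM receptor kinases, to which Mertk and Axl belong. Mfge8 bridges phosphatidylserine to integrins, and Timd4 (TIM-4) is a membrane receptor that binds phosphatidylserine itself. Maf is a transcription factor of macrophage differentiation, and Adgre1 encodes F4/80, an adhesion receptor widely used to identify mouse macrophages. Timd4 and high F4/80 mark tissue-resident macrophages in several organs. Fibroblasts are also known to express Gas6, Pros1, Axl and Mfge8.

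In GRCm38 all 8 are protein coding genes. Gas6 lies on chromosome 8 from 13465374 to 13494490 and Maf on the same chromosome from 115682942 to 115707794, both on the minus strand. Axl (25757273 to 25788705) and Mfge8 (79133768 to 79149060) lie on the minus strand of chromosome 7. Mertk lies on chromosome 2 from 128698956 to 128802894, Pros1 on chromosome 16 from 62854307 to 62929346, Timd4 on chromosome 11 from 46810800 to 46844332 and Adgre1 on chromosome 17 from 57358691 to 57483527, all on the plus strand. Exons of Gas6 share 34 bases with Tmem255b on the other strand, and exons of Maf share 440 bases with Gm15655. Whether the counting used strand is not given in the sources used here, but Tmem255b held at most 13 counts in a library and Gm15655 held 0.

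RefSeq promoter windows of GRCm38.p6 matched 6 of the 8 genes. The 250 bases before each RefSeq start are shown because Gas6 and Mertk fell with LDL, Pros1 and Axl did not, Mfge8 varied by genotype and Timd4 was near 0. For Gas6, Mertk, Axl and Timd4 these starts differ from the gene bounds given above. A check of reading direction, that bases after the start occur in a transcript of the gene, did not pass for Gas6 and Mertk. Capitals mark GGGCGG, the GC box, and GAGGAA, the core of sites of the macrophage factor PU.1, on either strand, where they read CCGCCC and TTCCTC.
Gas6, chr8:13494536-13494785, minus strand: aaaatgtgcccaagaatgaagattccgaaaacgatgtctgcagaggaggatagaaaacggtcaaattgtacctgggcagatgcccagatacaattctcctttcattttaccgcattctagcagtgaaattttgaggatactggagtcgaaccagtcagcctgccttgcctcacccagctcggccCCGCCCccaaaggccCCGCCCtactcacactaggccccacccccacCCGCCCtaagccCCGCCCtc
Mertk, chr2:128698665-128698914, plus strand: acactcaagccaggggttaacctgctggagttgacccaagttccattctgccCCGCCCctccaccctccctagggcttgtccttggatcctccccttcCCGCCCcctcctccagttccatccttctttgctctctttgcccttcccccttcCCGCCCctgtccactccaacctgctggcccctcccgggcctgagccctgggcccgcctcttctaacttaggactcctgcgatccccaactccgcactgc
Pros1, chr16:62854057-62854306, plus strand: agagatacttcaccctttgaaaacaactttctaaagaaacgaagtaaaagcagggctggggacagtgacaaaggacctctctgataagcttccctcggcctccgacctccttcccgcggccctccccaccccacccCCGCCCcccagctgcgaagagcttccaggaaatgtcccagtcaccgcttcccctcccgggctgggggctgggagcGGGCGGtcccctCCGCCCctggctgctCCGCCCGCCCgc
Axl, chr7:25788734-25788983, minus strand: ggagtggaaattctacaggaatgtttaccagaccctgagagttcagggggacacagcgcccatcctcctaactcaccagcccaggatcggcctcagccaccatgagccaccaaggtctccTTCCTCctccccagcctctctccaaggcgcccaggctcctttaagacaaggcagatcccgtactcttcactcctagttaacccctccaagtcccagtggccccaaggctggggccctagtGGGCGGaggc
Mfge8, chr7:79149061-79149310, minus strand: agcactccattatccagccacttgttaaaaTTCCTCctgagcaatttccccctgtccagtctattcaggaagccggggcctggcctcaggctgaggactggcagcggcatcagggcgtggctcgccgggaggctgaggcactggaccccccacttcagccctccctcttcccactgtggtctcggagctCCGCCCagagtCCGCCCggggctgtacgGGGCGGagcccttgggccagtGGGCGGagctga
Timd4, chr11:46810549-46810798, plus strand: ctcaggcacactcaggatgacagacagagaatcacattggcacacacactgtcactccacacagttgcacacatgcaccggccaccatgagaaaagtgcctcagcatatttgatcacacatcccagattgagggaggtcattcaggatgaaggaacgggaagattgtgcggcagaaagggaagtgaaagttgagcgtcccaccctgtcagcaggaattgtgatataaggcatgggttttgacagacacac
GC boxes were found 4 times in the Gas6 window, 3 times in that of Mertk, 5 in Pros1, 1 in Axl and 4 in Mfge8, with 0 in that of Timd4. Of 32851 windows of this length, 32.74% held 1 or more. The PU.1 core was found 1 time each in the windows of Axl and Mfge8, and 23.25% of all windows held it. TGACNNNGC, the core of the antioxidant response element, and TGANTCA, the AP-1 element, had 0 matches in the 6 windows (10.16% and 6.749% of all windows). No motif overlapped another, except that 2 GC boxes of Pros1 share bases. GC boxes stood in windows of genes that fell with LDL and in windows of genes that were not called.

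Main set libraries held 24105237 to 43904761 counts and batch 1 libraries 15171143 to 44449473. Levels below are CPM, a library's counts of a gene relative to its TMM-scaled total. Dnmt3a held 27.6 to 36.6 CPM in the 6 Dnmt3aKO libraries, against 39.4 to 71.2 in the 6 WT libraries of the main set. Tet2 averaged 34.8 ± 3.32 CPM in Tet2KO with vehicle (SD, n = 3), against 26.7 ± 6.26 in WT, but exons left intact by the recombinase still add to such a count. Counts per gene do not show the altered Jak2 base either, and the Tet2KO and Jak2VF labels were not tested. Macrophage markers were abundant: Csf1r, the M-CSF receptor, held 1621 to 2968 CPM in the main set and 2634 to 3872 in batch 1. Of the list of 26 resident macrophage genes, Clec4f held 0 to 0.076 CPM, Vsig4 0.027 to 0.305 and Lyve1 0 to 0.477 over both sets. These 3 were picked as low, and others of the list were abundant, such as Selenop at 386 to 2322 CPM and Trem2 at 189 to 1257. A list of 12 stromal markers summed to 13143 to 25036 CPM in the main set, with Col1a1, a collagen of fibroblasts, at 2334 to 6207 CPM. In batch 1 the sum was 825 to 1464 CPM in 8 libraries, 5592 in Tet2KO LDL library 2 and 6011 in Tet2KO vehicle library 3. All 12 stromal markers were detected in every library. Gfap, a gene of astrocytes, stood at 2.72 CPM in WT LDL library 3 and 4.26 in Tet2KO LDL library 3, against at most 0.714 in the other libraries.

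**Figure D1:**
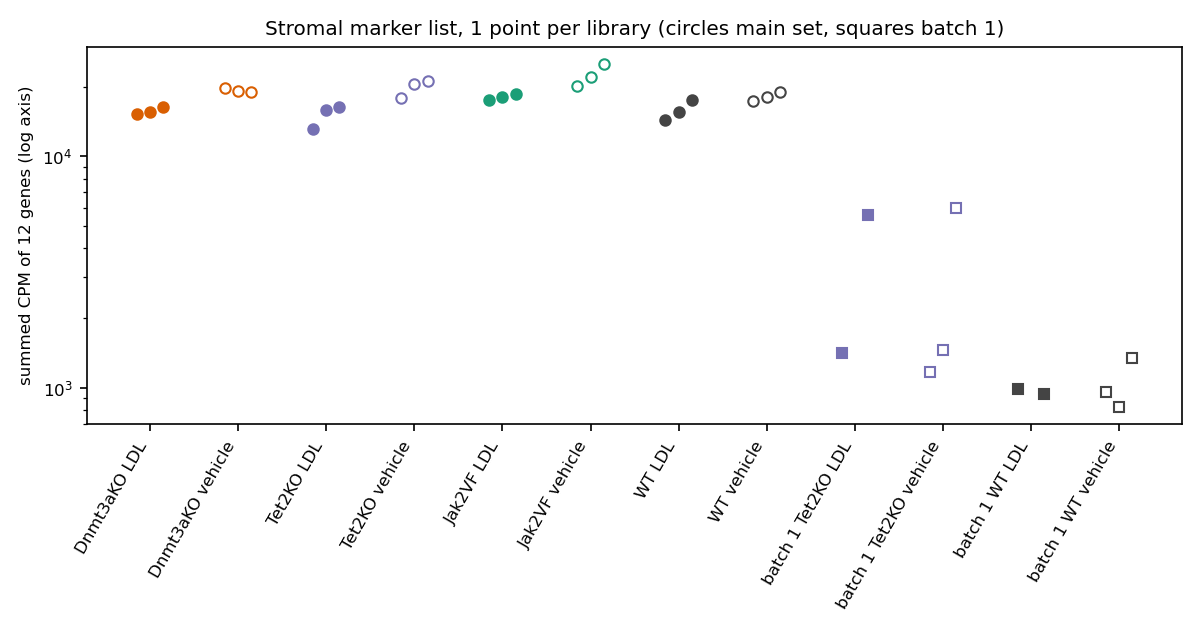
Summed CPM of the 12 stromal markers (log axis) in each library, with filled symbols for LDL and open symbols for vehicle. All main set libraries lie between 13143 and 25036 CPM, above every batch 1 library.

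The 8 genes differed widely in level. Per kilobase of exon, in WT cells of the main set with vehicle, Adgre1 was the most abundant at 368 ± 10.5 CPM per kb (SD, n = 3). Next were Gas6 at 177 ± 7.96, Axl at 83.0 ± 2.59 and Maf at 57.8 ± 1.87. Mfge8 stood at 38.5 ± 4.86, Pros1 at 30.7 ± 1.05 and Mertk at 17.1 ± 1.76 CPM per kb. In this group Axl was therefore higher than Mertk among receptors, and Gas6 was higher than Pros1 among TAM ligands. Both differences exceeded the spread between libraries. The receptor order was reversed in batch 1. WT cells with vehicle there held Mertk at 44.9 ± 0.406 and Axl at 22.2 ± 0.639 CPM per kb (SD, n = 3). Gas6 was above Pros1 in those cells as well. Timd4 had 0 counts in 16 of the 24 main libraries and in 6 of the 10 of batch 1, with at most 2 and 3 counts in a library. A count of 0 allows up to 0.0684 to 0.125 CPM in the main set and 0.0675 to 0.207 in batch 1 (3 counts of each library's scaled total, counting error only), so Timd4 was not measurable at this depth. It did not pass the filter on low counts, and 7 of the 8 genes were tested in each set.

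**Figure D2:**
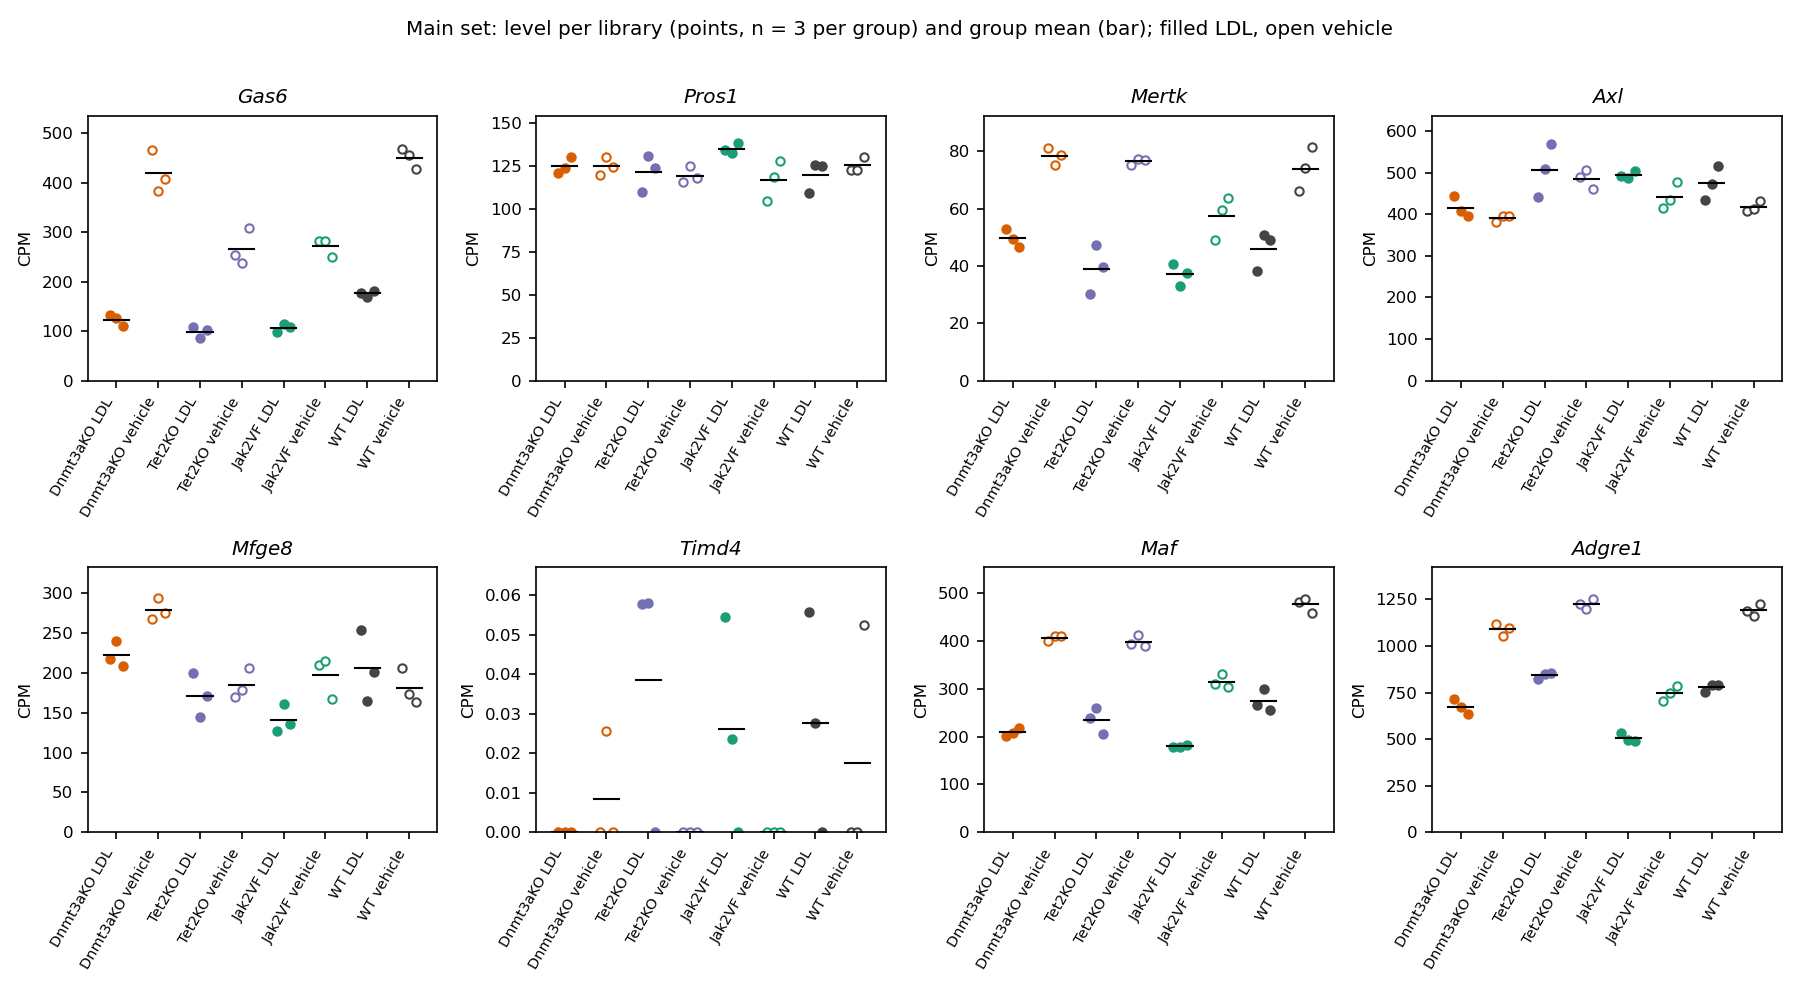
Level (CPM) of each gene in the 24 main libraries, with LDL (filled) left of vehicle (open) and WT at the right. Gas6, Mertk, Maf and Adgre1 lie lower with LDL than with vehicle in all 4 genotypes, with no overlap between the 3 libraries of each, while Pros1 stays between 104 and 139 CPM and Timd4 at or near 0.

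LDL against vehicle was tested in each genotype. Gas6, Maf, Adgre1 and Mertk fell with LDL in all 4 genotypes, Axl and Pros1 were called in none, and Mfge8 was called, lower, in Jak2VF. Of the 7 genes tested, 4 fell and 0 rose in Dnmt3aKO, Tet2KO and WT, and 5 fell and 0 rose in Jak2VF (edgeR quasi-likelihood test, adjusted p under 0.05). Over all 19444 genes, 8.96% were called lower and 6.41% higher in Dnmt3aKO, 8.21% lower and 8.59% higher in Tet2KO, 9.72% lower and 8.44% higher in Jak2VF and 7.58% lower and 6.67% higher in WT. The median log2 fold change of the 7 genes was -0.66 in Dnmt3aKO, -0.54 in Tet2KO, -0.56 in Jak2VF and -0.61 in WT, beside -0.02, -0.00163, -0.02 and 0 over all genes.

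Among ligands, Gas6 changed most. Gas6 held 132, 126 and 111 CPM in the Dnmt3aKO libraries with LDL, against 466, 383 and 408 in those with vehicle. Tet2KO libraries held 108, 86.9 and 101 CPM with LDL, against 253, 238 and 308 with vehicle. Jak2VF libraries held 97.5, 115 and 108 CPM of Gas6 with LDL, against 283, 282 and 251 with vehicle, and WT libraries 178, 170 and 182 with LDL, against 468, 456 and 429 with vehicle. In each genotype every LDL library was below every vehicle library. The log2 fold change of Gas6 was -1.77 ± 0.11 (SE) in Dnmt3aKO, -1.43 ± 0.11 in Tet2KO, -1.35 ± 0.11 in Jak2VF and -1.35 ± 0.11 in WT, that is 3.40, 2.69, 2.55 and 2.56 times lower (adjusted p = 2.4e-10, 4.9e-09, 1.1e-08 and 9.6e-09). Pros1, the other TAM ligand, held 109 to 139 CPM over the 12 LDL libraries, against 104 to 130 over the 12 vehicle libraries. Its log2 fold changes were 0.00196 ± 0.08 in Dnmt3aKO, 0.03 ± 0.08 in Tet2KO, 0.21 ± 0.08 in Jak2VF and -0.07 ± 0.08 in WT (adjusted p = 0.994, 0.869, 0.0774 and 0.644), and in Jak2VF the groups did not overlap. Without Jak2VF vehicle library 3 Pros1 was called in Jak2VF (adjusted p = 0.0246).

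The bridging protein Mfge8 held 127, 161 and 136 CPM in Jak2VF with LDL, against 210, 216 and 167 with vehicle. The groups did not overlap, though the lowest vehicle library lay close to the highest LDL library. Mfge8 fell by 0.48 ± 0.15 on the log2 scale in Jak2VF (adjusted p = 0.0265). That call was lost without Jak2VF vehicle library 1 (adjusted p = 0.0852) or 2 (0.101) and without Jak2VF LDL library 1 (0.133) or 3 (0.0932). In the other genotypes Mfge8 was not called, with log2 fold changes of -0.33 ± 0.15 in Dnmt3aKO, -0.11 ± 0.15 in Tet2KO and 0.19 ± 0.15 in WT (adjusted p = 0.151, 0.672 and 0.431). With only Dnmt3aKO libraries in the fit, Mfge8 was called in Dnmt3aKO (adjusted p = 0.00268), where the groups did not overlap.

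Of the receptors, Mertk fell and Axl did not pass. Mertk held 52.8, 49.6 and 46.5 CPM in Dnmt3aKO with LDL, against 81.1, 75.3 and 78.9 with vehicle. Tet2KO libraries held 30.3, 47.2 and 39.6 CPM with LDL, against 75.4, 77.5 and 77.2 with vehicle. In both genotypes every LDL library lay below every vehicle library. Jak2VF libraries held 40.8, 33.1 and 37.5 CPM of Mertk with LDL, against 49.0, 59.4 and 63.7 with vehicle, and WT libraries 38.3, 50.7 and 49.1 with LDL, against 66.2, 74.2 and 81.5 with vehicle. No LDL library reached a vehicle library of its genotype. The log2 fold change of Mertk was -0.66 ± 0.13 in Dnmt3aKO, -0.97 ± 0.14 in Tet2KO, -0.63 ± 0.14 in Jak2VF and -0.68 ± 0.14 in WT (adjusted p = 0.00132, 2.3e-05, 0.00235 and 0.00104). Axl held 395 to 570 CPM with LDL, against 381 to 507 with vehicle, over 12 libraries each. Its log2 fold changes were 0.09 ± 0.09 in Dnmt3aKO, 0.06 ± 0.09 in Tet2KO, 0.16 ± 0.09 in Jak2VF and 0.19 ± 0.09 in WT (adjusted p = 0.566, 0.686, 0.199 and 0.171), and the groups did not overlap in Jak2VF and WT, where all LDL libraries were higher.

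The transcription factor Maf held 201, 208 and 217 CPM in Dnmt3aKO with LDL, against 401, 410 and 411 with vehicle. In Tet2KO it held 240, 260 and 206 CPM with LDL, against 393, 413 and 390 with vehicle. These groups did not overlap, nor did those of the other genotypes. Jak2VF libraries held 178, 178 and 183 CPM of Maf with LDL, against 310, 331 and 303 with vehicle, and WT libraries 267, 299 and 256 with LDL, against 482, 488 and 459 with vehicle. The log2 fold change of Maf was -0.96 ± 0.08 in Dnmt3aKO, -0.76 ± 0.08 in Tet2KO, -0.81 ± 0.08 in Jak2VF and -0.80 ± 0.08 in WT (adjusted p = 1.2e-08, 3.5e-07, 1.8e-07 and 1.8e-07).

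Adgre1, the F4/80 gene, held 714, 671 and 636 CPM in Dnmt3aKO with LDL, against 1116, 1056 and 1098 with vehicle. In Tet2KO it held 825, 848 and 857 CPM with LDL, against 1226, 1198 and 1255 with vehicle. Jak2VF was lowest in both treatments, with 532, 495 and 492 CPM of Adgre1 with LDL, against 707, 748 and 785 with vehicle. WT libraries held 754, 790 and 793 CPM with LDL, against 1186, 1160 and 1228 with vehicle. The log2 fold change of Adgre1 was -0.69 ± 0.07 in Dnmt3aKO, -0.54 ± 0.07 in Tet2KO, -0.56 ± 0.07 in Jak2VF and -0.61 ± 0.07 in WT (adjusted p = 1.2e-07, 3.85e-06, 2.5e-06 and 6.6e-07). The stromal sum was also lower with LDL in the 3 mutant genotypes. It held 15274 to 16285 CPM with LDL against 19065 to 19714 with vehicle in Dnmt3aKO, 13143 to 16307 against 17824 to 21108 in Tet2KO and 17552 to 18581 against 20050 to 25036 in Jak2VF. In WT it overlapped between treatments, at 14388 to 17445 CPM with LDL against 17267 to 18912 with vehicle. Its part in the fall of the 4 genes was not tested. Fewer cells of a type and less RNA per cell cannot be told apart in these bulk libraries. Of the 12 stromal markers, 1 rose and 5 fell in Dnmt3aKO (6.41% and 8.96% of all genes), 0 rose and 6 fell in Tet2KO (8.59% and 8.21%), 0 rose and 5 fell in Jak2VF (8.44% and 9.72%), and 1 rose and 0 fell in WT (6.67% and 7.58%). Csf1r, the M-CSF receptor, held 2132 to 2332 CPM with LDL against 2363 to 2384 with vehicle in Dnmt3aKO and 2505 to 2566 against 2705 to 2968 in Tet2KO. It overlapped between treatments in the other genotypes, at 1621 to 1795 CPM with LDL against 1790 to 1888 with vehicle in Jak2VF and 2096 to 2338 against 2098 to 2199 in WT. A list of 10 macrophage markers, Csf1r, Adgre1 and Mertk among them, summed to 28450 to 31083 CPM with LDL against 32481 to 34379 with vehicle in Dnmt3aKO. The sums overlapped in Tet2KO (23453 to 31509 against 23522 to 24876), Jak2VF (19640 to 23240 against 20312 to 27222) and WT (24701 to 33173 against 23484 to 29730).

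Sums of marker lists named for other cells also moved with LDL. The megakaryocyte list holds Pf4, which is also in the list of resident macrophage genes. Its sum is therefore not particular to another cell type. The 6 monocyte markers, all detected in every library, summed to 1364 to 1479 CPM with LDL against 868 to 910 with vehicle in Dnmt3aKO, 769 to 1046 against 501 to 634 in Jak2VF and 498 to 804 against 442 to 496 in WT, and overlapped in Tet2KO (780 to 1308 against 697 to 880). The 6 megakaryocyte markers, likewise all detected, summed to 747 to 798 CPM with LDL against 543 to 613 with vehicle in Dnmt3aKO, 1258 to 1860 against 760 to 891 in Tet2KO, 994 to 1193 against 567 to 952 in Jak2VF and 1397 to 2110 against 620 to 924 in WT. Both sums were thus higher with LDL where they did not overlap. The 8 markers of T and NK cells, of which 7 or more were detected, were lower with LDL, at 15.1 to 16.3 CPM with LDL against 38.4 to 44.7 with vehicle in Dnmt3aKO, 19.3 to 23.8 against 56.9 to 60.9 in Tet2KO, 5.25 to 6.44 against 18.1 to 20.4 in Jak2VF and 14.1 to 17.5 against 27.4 to 28.6 in WT. The 5 B cell markers, all detected, were lower with LDL in Dnmt3aKO, Tet2KO and Jak2VF, at 7.14 to 29.4 CPM over these LDL libraries, and overlapped in WT, at 12.1 to 17.6 CPM with LDL against 15.6 to 24.3 with vehicle. Neutrophil markers, given below by genotype, summed higher with LDL in Dnmt3aKO, Tet2KO and WT and lower in Jak2VF. The part of these sums in the fall of the 4 genes was not tested.

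**Figure D3:**
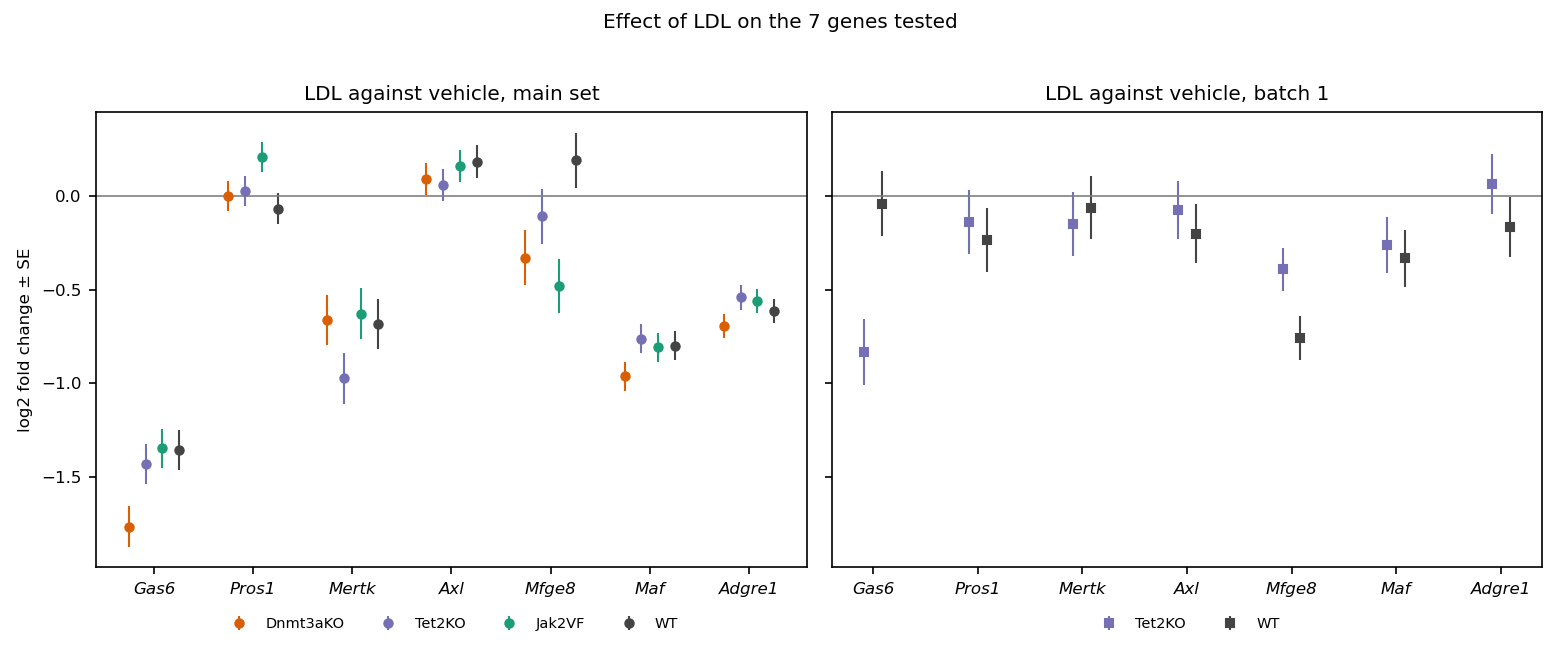
Log2 fold change (± SE) of LDL against vehicle for the 7 genes tested, in the main set (left) and in batch 1 (right). In the main set Gas6 lies between -1.77 and -1.35 and Pros1 and Axl near 0, while in batch 1 Gas6 is at -0.04 in WT.

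Whether the effect of LDL differed by genotype was tested as an interaction. Of the 7 genes, 0 were called for Dnmt3aKO, Tet2KO or Jak2VF against WT, beside 0.432%, 0.103% and 2.47% of all genes (edgeR), and 2744, 1428 and 5236 genes had an unadjusted p under 0.05. With DESeq2, 0 members were called for Dnmt3aKO and Tet2KO and 1 for Jak2VF, beside 1.99%, 0.699% and 7.36% of all genes. The larger fall of Gas6 in Dnmt3aKO than in WT was a log2 difference of -0.41 ± 0.15 (adjusted p = 0.217). The difference in Mfge8 between Jak2VF and WT was -0.67 ± 0.21 (adjusted p = 0.0746), and it passed with DESeq2 (0.0357), without the filter on low counts (0.0140), and without WT vehicle library 1 (0.0345), WT LDL library 2 (0.0139), Jak2VF vehicle library 3 (0.0297) or Jak2VF LDL library 2 (0.0463).

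The mutant genotypes were then compared with WT within each treatment, first in the main set. Jak2VF cells had lower Gas6, Adgre1 and Maf with either treatment, Tet2KO cells had lower Gas6 with either treatment, and Dnmt3aKO cells had higher Mfge8 with vehicle and lower Gas6, Maf and Adgre1 with LDL. With vehicle, 1 of the 7 genes was higher and 0 lower in Dnmt3aKO (5.58% and 5.51% of all genes), 0 were higher and 1 lower in Tet2KO (2.76% and 2.72%), and 0 were higher and 3 lower in Jak2VF (4.29% and 5.26%). With LDL, 0 were higher and 3 lower in Dnmt3aKO (8.01% and 9.46%), 0 higher and 1 lower in Tet2KO (1.28% and 1.48%), and 0 higher and 4 lower in Jak2VF (4.21% and 5.75%). The median log2 fold change of the 7 genes was -0.10 in Dnmt3aKO, 0.03 in Tet2KO and -0.37 in Jak2VF with vehicle, and -0.19, -0.22 and -0.55 with LDL, while the median over all genes was between -0.03 and 0.0035. These comparisons share the WT libraries.

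Gas6 with vehicle was 0.76 ± 0.11 lower on the log2 scale in Tet2KO than in WT (-0.76, adjusted p = 7.4e-05) and 0.73 ± 0.11 lower in Jak2VF (-0.73, adjusted p = 1.2e-04). In Dnmt3aKO the vehicle difference was -0.11 ± 0.10 (adjusted p = 0.676), and the libraries overlapped with those of WT. In order of mean level with vehicle, WT (451 CPM) and Dnmt3aKO (419 CPM) were neighbours with overlapping libraries, as were Jak2VF (272 CPM) and Tet2KO (267 CPM). With LDL the log2 difference in Gas6 from WT was -0.52 ± 0.11 in Dnmt3aKO, -0.83 ± 0.11 in Tet2KO and -0.72 ± 0.11 in Jak2VF (adjusted p = 0.00172, 3.5e-05 and 2.0e-04). Every mutant library with LDL held less Gas6 than every WT library with LDL, the highest being 132 CPM against a lowest WT value of 170 CPM. Pros1 was called in 0 of the 6 comparisons with WT.

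Maf was 0.60 ± 0.08 lower with vehicle (-0.60, adjusted p = 4.0e-05) and 0.61 ± 0.08 lower with LDL (-0.61, adjusted p = 5.4e-05) in Jak2VF than in WT. In Dnmt3aKO the Maf difference from WT was -0.39 ± 0.08 with LDL (adjusted p = 0.00134) and -0.23 ± 0.08 with vehicle (adjusted p = 0.0645). With vehicle all 3 Dnmt3aKO and all 3 Tet2KO libraries held less Maf than the WT libraries. Tet2KO stood at -0.22 ± 0.08 with LDL (adjusted p = 0.174) and at -0.26 ± 0.08 with vehicle (adjusted p = 0.0548). DESeq2 called Maf with vehicle in Dnmt3aKO (adjusted p = 0.0313, with 12.7% of all genes called) and in Tet2KO (adjusted p = 0.0192, with 7.10% called). With only Dnmt3aKO and WT libraries with LDL in the fit, the Maf call with LDL was lost (adjusted p = 0.0648).

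Adgre1 in Jak2VF differed from WT by -0.62 ± 0.07 with LDL (adjusted p = 7.5e-06) and by -0.67 ± 0.07 with vehicle (adjusted p = 1.2e-06), and no Jak2VF library reached a WT library of the same treatment. The lower Adgre1 in Dnmt3aKO with LDL was a difference of -0.21 ± 0.07 (adjusted p = 0.0322). It was lost without any single WT LDL library (adjusted p = 0.0554, 0.0664 and 0.0947), without Dnmt3aKO LDL library 2 (0.102) or 3 (0.180), with another scaling (0.0542) and with no filter on low counts (0.184). In Tet2KO Adgre1 stood at 0.04 ± 0.07 with vehicle and 0.11 ± 0.07 with LDL (adjusted p = 0.794 and 0.525). Markers of neutrophils summed to 916 to 1003 CPM in Dnmt3aKO, 209 to 246 in Tet2KO and 500.5 to 551 in Jak2VF with LDL, against 336 to 428 in WT. With vehicle they summed to 827 to 894 CPM in Dnmt3aKO, 124 to 171 in Tet2KO and 644 to 831 in Jak2VF, against 247 to 310 in WT. At least 14 of the 15 neutrophil markers were detected in each library. The 6 monocyte markers summed to 1364 to 1479 CPM in Dnmt3aKO, 780 to 1308 in Tet2KO and 769 to 1046 in Jak2VF with LDL, against 498 to 804 in WT. With vehicle they summed to 868 to 910 CPM in Dnmt3aKO, 697 to 880 in Tet2KO and 501 to 634 in Jak2VF, against 442 to 496 in WT, so each mutant lay above WT with vehicle. Stromal sums with vehicle were 19065 to 19714 CPM in Dnmt3aKO and 20050 to 25036 in Jak2VF, both above WT (17267 to 18912). Tet2KO overlapped with WT (17824 to 21108). With LDL the Jak2VF sum, 17552 to 18581 CPM, lay above that of WT, 14388 to 17445. Dnmt3aKO (15274 to 16285) and Tet2KO (13143 to 16307) overlapped with WT there. The part of neutrophil, monocyte and stromal markers in the genotype differences was not tested.

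Mfge8 with vehicle held 268, 294 and 275 CPM in Dnmt3aKO, against 207, 173 and 163 in WT. All 3 Dnmt3aKO libraries were higher, by a log2 fold change of 0.63 ± 0.15 (adjusted p = 0.0059). With LDL Mfge8 held 217, 240 and 209 CPM in Dnmt3aKO and 127, 161 and 136 in Jak2VF, against 253, 165 and 202 in WT. Dnmt3aKO overlapped with WT there (0.11 ± 0.15, adjusted p = 0.628), whereas Jak2VF was lower (-0.55 ± 0.15, adjusted p = 0.0234). The Jak2VF call of Mfge8 was lost without WT LDL library 1 (adjusted p = 0.172) and without Jak2VF LDL library 1 (0.117) or 3 (0.102). It was also lost without both libraries of highest Gfap (0.0567).

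Neither Mertk nor Axl was called in a comparison with WT in the main set. The third TAM receptor, Tyro3, which is not among the genes described, was called in Jak2VF with vehicle. It was 0.46 ± 0.10 higher than in WT on the log2 scale (edgeR, adjusted p = 0.0063). Mertk in Jak2VF stood at -0.31 ± 0.14 with LDL (adjusted p = 0.134) and at -0.37 ± 0.13 with vehicle (adjusted p = 0.0963), and with vehicle its libraries did not overlap with those of WT. In a test of any difference among the 4 genotypes with vehicle, 5 of 7 genes passed (24.7% of all genes): Gas6, Maf, Adgre1, Mfge8 (adjusted p = 0.00565) and Axl (adjusted p = 0.0473). For Axl the group means with vehicle were 391 CPM in Dnmt3aKO, 485 in Tet2KO, 442 in Jak2VF and 418 in WT, and the call was lost without any 1 of 10 of the 12 vehicle libraries (adjusted p up to 0.157). With LDL 4 of 7 passed (22.0% of all genes), namely Gas6, Maf, Adgre1 and Mfge8 (adjusted p = 0.00914), and Axl had an adjusted p of 0.0715. Mertk had adjusted p = 0.0502 with vehicle and 0.0697 with LDL. It passed under 6 alternative settings with vehicle (adjusted p from 0.000904 to 0.0497) and under 2 with LDL (0.0142 and 0.0253).

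**Figure D4:**
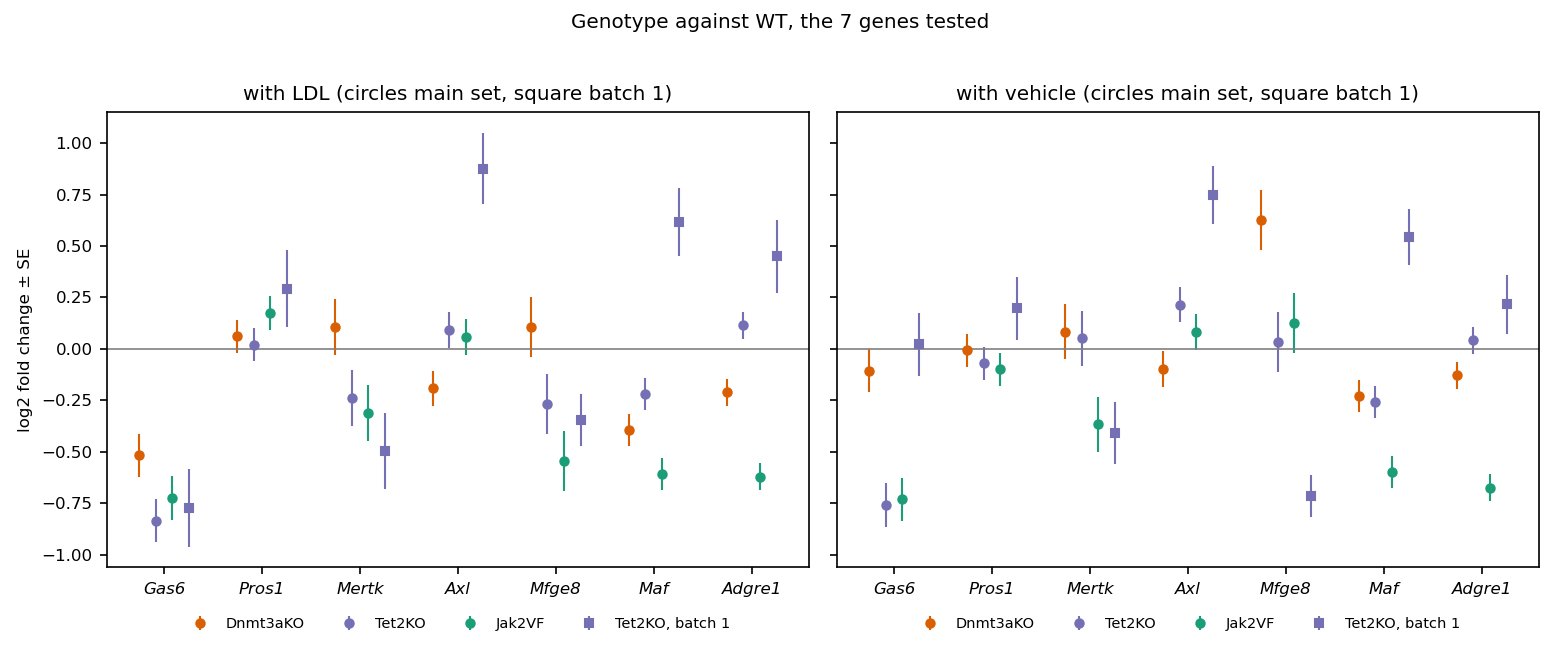
Log2 fold change (± SE) of each mutant genotype against WT for the 7 genes tested, with LDL (left) and with vehicle (right). Jak2VF lies below 0 for Gas6, Maf and Adgre1 in both panels, and Tet2KO of batch 1 lies above 0 for Axl and Maf, at 0.75 and 0.54 with vehicle.

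Batch 1 repeated LDL and vehicle in Tet2KO and WT cells. No gene of 15481 was called for LDL in Tet2KO (0%) or in WT (0%) with edgeR, so 0 of 7 genes were called. Of all genes, 1126 in Tet2KO and 707 in WT had an unadjusted p under 0.05. DESeq2 called 180 genes in Tet2KO (1.16%) and 69 in WT (0.446%), with Gas6 in Tet2KO and Mfge8 in WT as the 1 member in each. Gas6 held 355 and 259 CPM in Tet2KO with LDL, against 599, 604 and 438 with vehicle, and 565 and 484 CPM in WT with LDL, against 523, 542 and 551 with vehicle. The Tet2KO groups did not overlap and the WT groups did. The log2 fold change of Gas6 was -0.83 ± 0.18 in Tet2KO (adjusted p = 0.209) and -0.04 ± 0.17 in WT (adjusted p = 1.00). Mfge8 held 275 and 281 CPM in Tet2KO with LDL, against 368, 396 and 328 with vehicle, and 385 and 321 in WT with LDL, against 559, 619 and 613 with vehicle. Its log2 fold change was -0.39 ± 0.12 in Tet2KO and -0.76 ± 0.12 in WT (adjusted p = 0.402 and 0.234). Adgre1 averaged 1400 CPM with LDL against 1336 with vehicle in Tet2KO, and 1025 against 1149 in WT. Mertk averaged 132 against 146 in Tet2KO and 186 against 195 in WT. Maf averaged 247 against 296 in Tet2KO and 161 against 203 in WT. For these genes the libraries overlapped between treatments, except for Maf in Tet2KO, which was lower with LDL. The interaction of Tet2KO with LDL was called for 0 genes (0%) with edgeR, with 236 at an unadjusted p under 0.05 and 4 (0.0258%) called by DESeq2, none of them a member.

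Against WT, Tet2KO cells of batch 1 with vehicle had higher Axl and lower Mfge8, 2 of 7 genes beside 1.89% of all genes in either direction. Axl held 185, 162 and 216 CPM in Tet2KO, against 111, 109 and 115 in WT (0.75 ± 0.14, adjusted p = 0.0327). Mfge8 held 368, 396 and 328 CPM in Tet2KO, against 559, 619 and 613 in WT (-0.71 ± 0.10, adjusted p = 0.0116). Neither gene overlapped between genotypes, and DESeq2 called 3 genes of the 7 (Maf as well, adjusted p = 0.00833), beside 4.39% of all genes. The Axl call was lost without any single WT vehicle library (adjusted p = 0.141, 0.153 and 0.130) and without Tet2KO vehicle library 1 (0.0713) or 3 (0.0743). The Mfge8 call was lost without WT vehicle library 2 (0.0684) or 3 (0.0666). Stromal markers summed to 1171 to 6011 CPM in Tet2KO, against 825 to 1347 in WT, and their part was not tested. Without the libraries of the 2 highest stromal sums, the log2 fold change was 0.64 for Axl and -0.64 for Mfge8. This setting was added after the data were seen and is no test of the stromal part. Maf held 319, 287 and 283 CPM in Tet2KO, against 188, 225 and 197 in WT (0.54 ± 0.13, adjusted p = 0.0924). With LDL 0 of 7 genes were called with edgeR (0.536% of all genes, 1844 at an unadjusted p under 0.05) and 3 with DESeq2 (Axl, Gas6 and Maf, beside 2.53% of all genes), and the difference in Axl from WT was 0.88 ± 0.17 (adjusted p = 0.0663). The lower Gas6 of Tet2KO cells in the main set was not called in batch 1 with edgeR: the difference from WT was 0.02 ± 0.15 with vehicle (adjusted p = 0.972), where the libraries overlapped, and -0.77 ± 0.19 with LDL (adjusted p = 0.146), where both Tet2KO libraries were below both WT libraries.

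**Figure D5:**
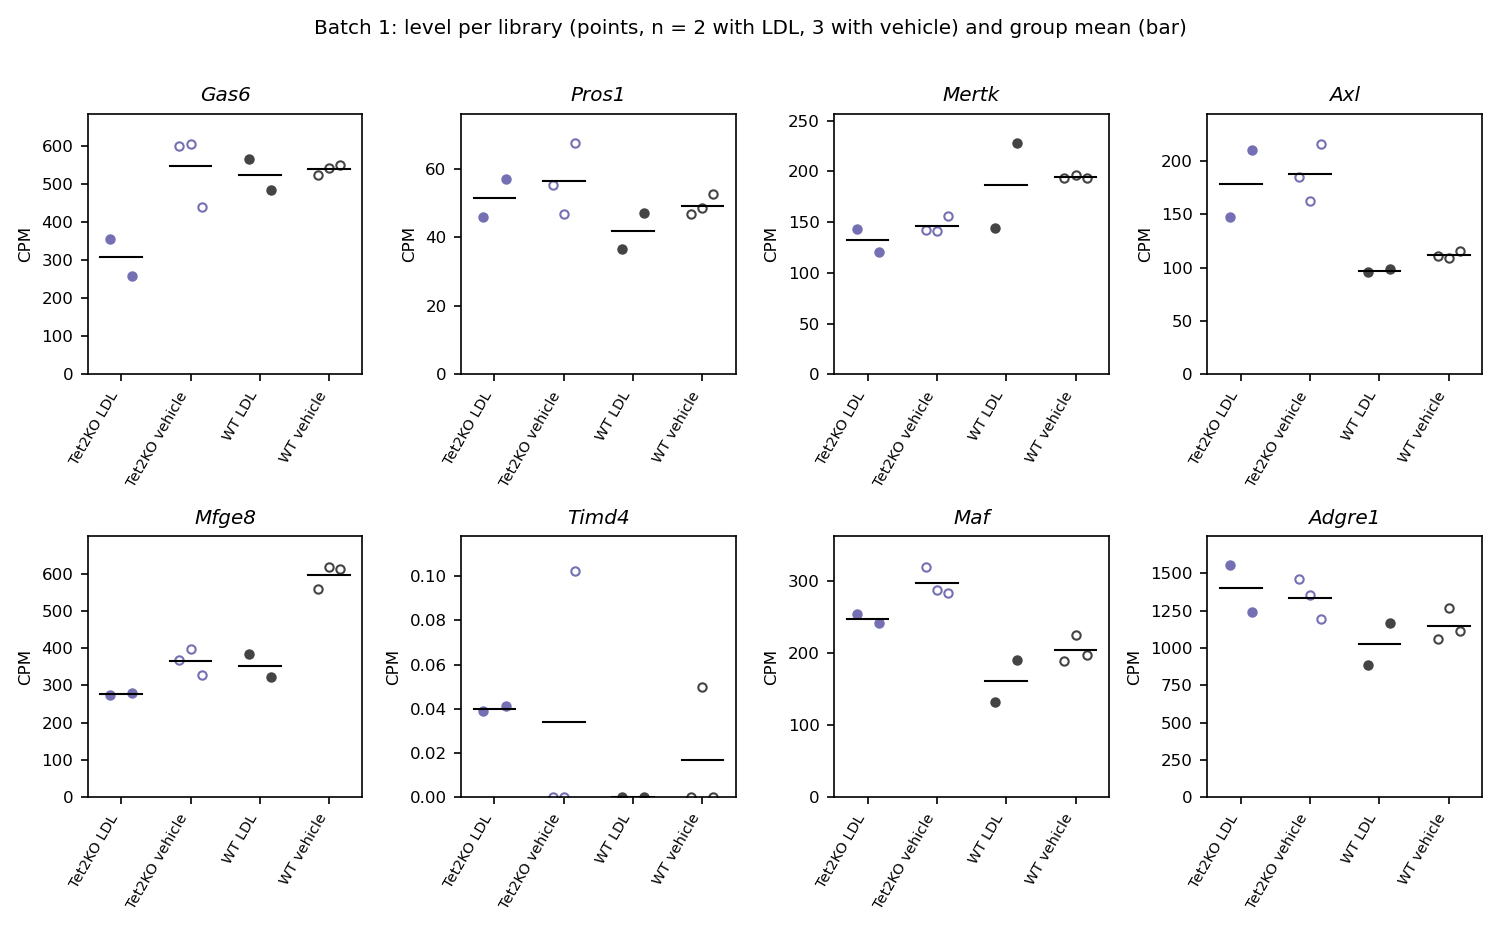
Level (CPM) of each gene in the 10 libraries of batch 1, with LDL (filled) left of vehicle (open) and Tet2KO left of WT. Axl lies between 147 and 216 CPM in Tet2KO and between 95.9 and 115 CPM in WT, and Gas6 in WT overlaps between LDL and vehicle.

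The effects in the 2 sets were compared in 1 fit of the WT and Tet2KO libraries of both tables, over 14990 genes, a comparison added after the data were seen. The LDL effect on Gas6 in WT was 1.31 ± 0.22 less negative in batch 1 than in the main set (log2 difference 1.31, adjusted p = 0.00546), the 1 gene called of 7 (0.807% of all genes). For the LDL effect in Tet2KO 0 of 7 were called (0.654% of all genes, 1310 at an unadjusted p under 0.05), with Gas6 at 0.59 ± 0.22 (adjusted p = 0.368). The Tet2KO effect on Maf with vehicle differed by 0.82 ± 0.16 (adjusted p = 0.0115), the 1 gene called of 7 (1.66% of all genes), and was lost without WT vehicle library 2 of the main set (0.0538). Gas6 there stood at 0.80 ± 0.21 (adjusted p = 0.0608) and was called without both libraries with high stromal sums (adjusted p = 0.00413). For the Tet2KO effect with LDL 0 of 7 were called (0.280% of all genes, 1720 at an unadjusted p under 0.05). Levels also stood apart with vehicle, across tables that were counted separately. In WT with vehicle Axl held 109 to 115 CPM in batch 1, against 408 to 433 in the main set, and Pros1 46.8 to 52.5 against 123 to 130. Mertk held 194 to 197 CPM in WT with vehicle in batch 1, against 66.2 to 81.5 in the main set. Thus Axl and Pros1 were lower in batch 1 and Mertk was higher. Transcripts that sterols are known to control also differed in WT with vehicle: Idi1, an enzyme of sterol synthesis, held 14.4 to 19.4 CPM in batch 1, against 66.9 to 82.9 in the main set, and Abcg1, a cholesterol transporter, 207 to 238 against 23.2 to 25.5. The part of sterol-controlled and stromal transcripts in these differences was not tested.

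Other genes of the same processes were read from lists. Beside each list's counts stand the shares of all genes called higher and lower with LDL, 6.41% and 8.96% in Dnmt3aKO, 8.59% and 8.21% in Tet2KO, 8.44% and 9.72% in Jak2VF and 6.67% and 7.58% in WT. In the list of apoptotic cell recognition, 31 of 32 genes were tested. With LDL 5 rose and 9 fell in Dnmt3aKO, 4 rose and 6 fell in Tet2KO, 6 rose and 8 fell in Jak2VF, and 10 rose and 6 fell in WT. The median log2 fold change of the list was 0.02 in Dnmt3aKO, 0.12 in Tet2KO, 0.05 in Jak2VF and -0.00311 in WT. Cx3cr1, the receptor of the chemokine fractalkine, fell by 1.47 ± 0.09 in Dnmt3aKO, 1.27 ± 0.08 in Tet2KO, 1.51 ± 0.09 in Jak2VF and 1.52 ± 0.09 in WT on the log2 scale. Cd300lf, a phosphatidylserine receptor in mice, fell by 1.60 ± 0.09, 1.98 ± 0.10, 1.53 ± 0.09 and 1.38 ± 0.09 in the same order. Havcr2 (TIM-3), a relative of Timd4, moved the other way: it rose by 1.57 ± 0.11 in Dnmt3aKO, 1.31 ± 0.11 in Tet2KO, 1.61 ± 0.11 in Jak2VF and 0.99 ± 0.10 in WT. It held 93.2 to 106 CPM with LDL against 29.9 to 37.3 with vehicle in Dnmt3aKO, and 68.8 to 77.4 against 34.1 to 37.8 in WT. Cd36, a scavenger receptor, rose by 1.26 ± 0.10 in Dnmt3aKO, 1.15 ± 0.10 in Tet2KO, 1.48 ± 0.10 in Jak2VF and 0.79 ± 0.09 in WT. Against WT with vehicle, Cd36 was 1.08 ± 0.10 higher in Dnmt3aKO and stood at -0.76 ± 0.10 in Tet2KO and -0.93 ± 0.10 in Jak2VF. The LDL effect on Cd36 and Havcr2 was larger in Jak2VF than in WT, by 0.69 ± 0.13 (adjusted p = 0.011) and 0.62 ± 0.15 (adjusted p = 0.0314). C1qc, a chain of complement C1q, was lower than in WT with LDL in all 3 mutants, at -0.96 ± 0.21 in Dnmt3aKO, -0.78 ± 0.21 in Tet2KO and -1.39 ± 0.21 in Jak2VF (adjusted p = 0.0034, 0.0479 and 3.4e-04).

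In the list of engulfment and digestion, all 26 genes were tested, and 3 rose and 4 fell in Dnmt3aKO, 3 rose and 5 fell in Tet2KO, 5 rose and 2 fell in Jak2VF and 4 rose and 3 fell in WT with LDL, with medians between -0.10 and 0.00254. Slc7a11, a cystine transporter, rose by 2.83 ± 0.20 in Dnmt3aKO, 2.57 ± 0.20 in Tet2KO, 2.51 ± 0.20 in Jak2VF and 2.18 ± 0.20 in WT. Elmo1, part of a Rac activator used in engulfment, fell by 0.62 ± 0.11 in Dnmt3aKO, 0.60 ± 0.12 in Tet2KO and 0.89 ± 0.12 in WT, and stood at -0.24 ± 0.11 in Jak2VF (adjusted p = 0.153). Abca1, a cholesterol transporter, rose by 0.86 ± 0.18 in Dnmt3aKO, 0.98 ± 0.18 in Jak2VF and 0.73 ± 0.18 in WT. In the list of 12 TAM signalling genes, 4 rose and 1 fell in Dnmt3aKO, 2 rose and 0 fell in Tet2KO, 3 rose and 1 fell in Jak2VF and 3 rose and 0 fell in WT, with medians between 0.04 and 0.30. Socs3, a suppressor of cytokine signalling, rose by 0.73 ± 0.10, 1.06 ± 0.10, 0.55 ± 0.10 and 0.72 ± 0.10 in that order of genotypes. Tyro3, the third TAM receptor, rose by 0.35 ± 0.10 in WT (adjusted p = 0.024), at 9.34 to 10.7 CPM with LDL against 7.21 to 8.43 with vehicle. Of the 6 genes of vitamin K-dependent carboxylation, which matures Gas6 and Pros1, 2 rose and 0 fell in each genotype. Those were Nqo1, a quinone reductase, which rose by 3.43 ± 0.12 in Dnmt3aKO, 3.05 ± 0.12 in Tet2KO, 2.79 ± 0.12 in Jak2VF and 2.74 ± 0.12 in WT, and Aifm2, an oxidoreductase that reduces vitamin K. Nqo1 is also a known target of the antioxidant response.

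Of 23 tested genes in the list of 26 resident macrophage genes, 2 rose and 6 fell in Dnmt3aKO, 6 rose and 6 fell in Tet2KO, 2 rose and 7 fell in Jak2VF and 5 rose and 8 fell in WT with LDL, to be read against the shares of all genes given above. The median log2 fold change of the list was -0.21, -0.28, -0.12 and -0.23 in that order. Selenop, a selenium carrier, fell by 1.72 ± 0.11 in Dnmt3aKO, 1.44 ± 0.11 in Tet2KO, 1.74 ± 0.11 in Jak2VF and 1.27 ± 0.11 in WT, and the log2 fold change of Cbr2, a carbonyl reductase, was -2.31 ± 0.21, -2.05 ± 0.21, -2.05 ± 0.20 and -2.18 ± 0.20 in that order. Mrc1, the mannose receptor CD206, fell by 1.65 ± 0.19 in Dnmt3aKO, 1.55 ± 0.19 in Tet2KO, 0.92 ± 0.19 in Jak2VF and 1.53 ± 0.19 in WT. Ednrb, an endothelin receptor, rose by 1.25 ± 0.09, 1.00 ± 0.09, 1.09 ± 0.09 and 0.91 ± 0.09 in Dnmt3aKO, Tet2KO, Jak2VF and WT. In Jak2VF against WT with LDL 0 of the 23 were higher and 13 lower, beside 4.21% and 5.75% of all genes, among them Cd5l, a secreted scavenger-family protein (-1.38 ± 0.19), and Spic, a factor of red pulp macrophages (-1.15 ± 0.23). Among small Maf proteins, Maff rose with LDL in Tet2KO, Jak2VF and WT, Mafk in Dnmt3aKO, Tet2KO and Jak2VF, and Mafg in Dnmt3aKO and Jak2VF, by 0.28 to 0.72 on the log2 scale. Adgre5 (CD97), a relative of Adgre1, rose by 0.30 ± 0.08 in Dnmt3aKO, 0.32 ± 0.08 in Tet2KO, 0.52 ± 0.08 in Jak2VF and 0.70 ± 0.08 in WT. Adgre4, another relative, had log2 fold changes of -2.51 ± 0.35 in Dnmt3aKO, -3.17 ± 0.30 in Tet2KO and -2.11 ± 0.41 in Jak2VF. It was not called in WT. Of 14 nuclear receptors and other factors tied to efferocytosis, 2 rose and 3 fell in Dnmt3aKO, 3 rose and 2 fell in Tet2KO, 1 rose and 3 fell in Jak2VF and 4 rose and 1 fell in WT.

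Over the 8 group means of the main set, 4 genes varied by at least 1 log2 unit: Gas6 by 2.19, Maf by 1.41, Adgre1 by 1.28 and Mertk by 1.08, against 0.37 for Axl and 0.21 for Pros1. Among 9255 genes the pattern nearest to that of Gas6 was that of Mrc1, with a root mean square difference of 0.15 log2 units between centred group means, where the median gene differed by 0.83. Nearest to Maf were Frmd4b (0.06), Gnpda1 (0.10) and Sirpa (0.11), an inhibitory receptor for CD47. Nearest to Adgre1 were Cysltr1 (0.12), Stab1 (0.12), a scavenger receptor, and Themis2 (0.13), and nearest to Mertk were P2rx7 (0.08), Rragd (0.09) and Tmcc3 (0.09). These distances rest on 8 groups of 3 libraries and are a description without a test.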

How the data were processed

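Gene counts of 34 RNA sequencing libraries were read from the deposited tables. The authors' file names call them normalized, but the deposited values are whole-number counts whose totals differ between libraries. Reads were mapped to mm10, per the submitters' processing notes; the aligner, the counter and the annotation were not given in the sources used here. Both poly(A) selection and rRNA depletion are named in the labels' protocols.

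A gene was tested if 3 libraries of the main set, or 2 of batch 1, each held 10 or more counts, and the test was made with edgeR 4.0.16 (quasi-likelihood, TMM scaling, R 4.3.3), 1 fit of all groups per set, with Benjamini-Hochberg adjustment over all genes tested and calls at an adjusted p under 0.05. CPM used TMM-scaled totals, and values per kb used summed GRCm38 exon lengths. Alternatives were DESeq2 1.42.0, its size factors, no filter, only the groups compared, replicate blocks and left-out libraries. By the correlation of deviations from group means, title numbers paired Tet2KO with WT libraries given LDL (0.43, 0.43 and 0.29 for the 3 pairs, all over 0.1) and no other compared groups of 3 pairs; the labels state no shared batch, and the main fit has no block. From each list up to 4 called genes with the smallest adjusted p in a comparison could be named; their values in further genotypes, and the marker genes given, were added after values were seen. The nearest patterns were taken among tested genes with a mean of at least 10 CPM. The calculation was tested on simulated data. Members and lists were chosen with earlier results of these data known, and patterns those results already show are no independent support. All deposited count columns were used. A result on 1 further gene is not reported here.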

Additional observations from a re-analysis of the deposited data

Results flagged for a closer look

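The LDL effect on Gas6 in WT differed between sets. The log2 difference, batch 1 minus main set, was 1.31 ± 0.22 (edgeR, adjusted p = 0.00546), with Gas6 overlapping between LDL and vehicle in batch 1 and lower in all 3 LDL libraries of the main set. The Tet2KO effect on Maf with vehicle also differed, by 0.82 ± 0.16 (adjusted p = 0.0115), with Maf higher than in WT in all 3 Tet2KO libraries of batch 1 and lower in all 3 of the main set. Set and stromal content cannot be told apart here, since every main set library had a higher stromal sum than every batch 1 library. No group held 4 or more samples, so no single library was compared with its group for standing apart.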

How the results depend on the processing

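Of 2352 single-gene results under alternatives, 2263 kept their side of the threshold, 47 lost a call and 42 gained one. No called value changed sign, and 78 values called under neither setting did. Members called moved as follows, with the count reported above in brackets. The genotype by description number replicate block gave 2 (5) for LDL in Jak2VF. The title number block, the description number block and DESeq2 each gave 2 (1) for Dnmt3aKO and for Tet2KO against WT with vehicle, and only the groups compared gave 2 (1) for Dnmt3aKO with vehicle and 1 (3) with LDL. The Jak2VF interaction had 1 (0) with no filter and with DESeq2, and 0 to 2 leaving out single libraries. In batch 1, DESeq2 gave 1 (0) for LDL in WT and in Tet2KO and 3 (0) for Tet2KO against WT with LDL; for Tet2KO against WT with vehicle the title number block gave 1 (2) and leaving out single libraries 0 to 2. Between sets, leaving out single libraries gave 1 to 2 (1) for the LDL effect in WT, 0 to 2 (1) for the Tet2KO effect with vehicle and 0 to 2 (0) with LDL, where size factors of DESeq2 gave 1; without both libraries with high stromal transcripts the vehicle effect gave 2 (1). The cause of these changes was not tested. Over all genes, the genotype by description block called 867, 712, 543 and 597 genes for LDL in Dnmt3aKO, Tet2KO, Jak2VF and WT (2988, 3267, 3532 and 2770). Only the groups compared called 5596, 1513 and 1291 for LDL in Dnmt3aKO, Tet2KO and WT, 769 (1857) for Jak2VF with vehicle, and 1287 (3397), 39 (537) and 276 (1938) for Dnmt3aKO, Tet2KO and Jak2VF against WT with LDL. DESeq2 called 386 (84), 136 (20) and 1432 (480) genes for the interactions. A correlation of deviations over 0.1 was found in 3 of 12 same-genotype and 6 of 36 same-treatment pairs by title number, in 1 of 8 same-genotype pairs by description number and, in batch 1, in 3 of 4 same-genotype pairs by title number. With 2 LDL libraries per genotype in batch 1, their deviations mirror each other, so those 4 values say little on pairing. The largest same-genotype value there, 0.747, joined different numbers, Tet2KO vehicle library 3 and Tet2KO LDL library 2. Title numbers paired Tet2KO with WT given LDL, where the title number block changed no member's call (Gas6 -0.84 ± 0.11, adjusted p = 6.2e-05; 608 genes called against 537 without the block). In no other compared groups of 3 pairs were all 3 correlations over 0.1, so their block results stand here only. In 2 cases 2 of 3 pairs were over 0.1. These were Jak2VF with WT given vehicle (0.0235 to 0.312) and Jak2VF with LDL and with vehicle (-0.145 to 0.171). Under the genotype by description block Mertk was lost for LDL in Dnmt3aKO, Jak2VF and WT and Adgre1 in Tet2KO and Jak2VF. Timd4 did not pass the filter on low counts in either set.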
